A study of Mus musculus with 224 samples.

Results

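Pcx, Pck1, Fbp1, Fbp2, G6pc, Slc37a4 and Pklr, 7 genes of hepatic glucose production and of its switch to glycolysis, are described here in liver, soleus muscle and fat of mice on 2 diets. They were chosen by name for their place in the pathway and were found through their Ensembl identifiers. Of them 6 were among the 12611 genes measured in liver, and all 7 among the 13637 in soleus and the 16542 in visceral adipose tissue, out of 17494 genes measured in at least 1 tissue. Fbp2 was not analysed here in liver.

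RNA sequencing had been done on C57Bl/6J, DBA/2J and BALB/cJ mice, 3 inbred strains. Their diet was either high in fat (HFD) or a regular chow (RC), and the sample labels give collection on day 5, 13 or 33, whereas the design text of the series gives the third period as 13 days. Strain, diet and day made 18 groups with 4 animals in each, hence 72 libraries per tissue, and each HFD group was compared with the RC group of its strain and day. The composition of the diets and the sex and age of the mice are not given in the sources used here. Neither are the hour and feeding state at collection. In the main fit the p-values rest on the spread between animals within groups, pooled for each gene over the 18 groups of a tissue.

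In gluconeogenesis the liver makes glucose from lactate, amino acids and glycerol, mainly between meals. Pyruvate carboxylase (Pcx) makes oxaloacetate from pyruvate in mitochondria, phosphoenolpyruvate carboxykinase (Pck1) carries it on to phosphoenolpyruvate, fructose bisphosphatase (Fbp1 in liver, Fbp2 in muscle) bypasses the phosphofructokinase step, and the catalytic subunit of glucose phosphatase (G6pc) works with the glucose phosphate carrier of the endoplasmic reticulum (Slc37a4) to release free glucose. Pklr encodes the pyruvate kinase of liver and red cells and runs the opposite way, at the last step of glycolysis. Glucagon, acting through cyclic AMP, and glucocorticoids are known to raise Pck1 and G6pc transcription and insulin to lower it, whereas glucose raises Pklr transcription. In fat cells Pck1 supplies glycerol phosphate for triglyceride and Pcx supplies oxaloacetate for citrate export and fatty acid synthesis.

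Promoter sequence is shown for Pck1, G6pc, Slc37a4, Fbp2 and Pklr, in which a motif of these hormone and glucose responses was found upstream of a RefSeq start, because Pck1, Slc37a4 and Pklr were lower on HFD over all strains and days in liver. The match in Pcx lies at the far edge of the window, and its sequence is not shown. Sequences are from RefSeq on GRCm38.p6, read 5′ to 3′ on the strand of the gene, with bases that overlap annotated exons left out except in Slc37a4, for which a short window is given. Capitals mark the motif match.
Pck1, chr2:173152823-173153047, + strand: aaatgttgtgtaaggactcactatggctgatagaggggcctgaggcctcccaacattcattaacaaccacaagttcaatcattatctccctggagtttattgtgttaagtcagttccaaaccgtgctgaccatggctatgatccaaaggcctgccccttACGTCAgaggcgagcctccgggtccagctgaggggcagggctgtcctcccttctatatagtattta
G6pc, chr11:101367466-101367560, + strand: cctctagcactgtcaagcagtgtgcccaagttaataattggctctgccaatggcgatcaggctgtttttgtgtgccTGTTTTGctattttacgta
Slc37a4, chr9:44396873-44396902, + strand: tgacaggcaggaTGACGTctccatcccagg
Fbp2, chr13:62858423-62858650, - strand: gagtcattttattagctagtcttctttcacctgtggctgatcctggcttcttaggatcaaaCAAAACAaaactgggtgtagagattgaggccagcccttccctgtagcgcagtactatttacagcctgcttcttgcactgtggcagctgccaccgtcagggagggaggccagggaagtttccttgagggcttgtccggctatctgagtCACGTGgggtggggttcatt
Pklr, second start, chr3:89136373-89136571, + strand: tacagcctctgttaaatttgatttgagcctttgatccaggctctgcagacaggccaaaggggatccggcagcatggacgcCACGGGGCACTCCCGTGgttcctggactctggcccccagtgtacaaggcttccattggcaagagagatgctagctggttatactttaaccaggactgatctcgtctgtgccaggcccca

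The motifs were searched on both strands of the 250 bases before each start. The core of the cyclic AMP response element, ACGTCA, lay at -91 to -86 of Pck1 and, on the opposite strand, at -61 to -56 of Slc37a4, and 6.47% of 32851 promoters of that length held it. The forkhead-type insulin response letters TGTTTTG lay at -174 to -168 of G6pc and, on the opposite strand, at -189 to -183 of Fbp2, against 5.56% of promoters. The E-box CACGTG lay at -42 to -37 of Fbp2 and at -248 to -243 of Pcx, against 6.02% of promoters. The carbohydrate response element lay at -170 to -154 of the second Pklr start, and 13 promoters of 12 genes, or 0.0396%, held it. In the window of Fbp1 none of these letters was found. The matches describe the sequence and are no evidence of binding.

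By the GENCODE annotation of GRCm38 the members are protein-coding genes on 6 chromosomes, with Fbp1 (ENSMUSG00000069805, chr13:62864753-62888282) and Fbp2 (ENSMUSG00000021456, chr13:62836877-62858422) next to each other on the - strand. The others are Pck1 (ENSMUSG00000027513, chr2:173153048-173159273), G6pc (ENSMUSG00000078650, chr11:101367561-101377903), Slc37a4 (ENSMUSG00000032114, chr9:44396852-44402968), Pcx (ENSMUSG00000024892, chr19:4510472-4621752) and Pklr (ENSMUSG00000041237, chr3:89136142-89146784), all on the + strand. The longest run of bases shared by a transcript of Fbp1 and one of Fbp2 was 23 bases, and the longest between Pklr and the muscle pyruvate kinase Pkm was 31 bases, below the length of a read.

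Library sizes recovered from the tables ran from 18078488 to 31991289 reads in liver, 19945355 to 33370016 in soleus and 19783483 to 46795074 in adipose tissue. The labelled tissues held their own markers: 7 hepatocyte markers summed to between 85041 and 156511 counts per 1000000 reads (CPM) in the liver libraries. In soleus the summed hepatocyte markers ran from 8.81 to 7808 CPM, and 14 libraries, 4 on HFD and 10 on RC, lay above 5 times the median of 117 CPM. Of this list Cyp2e1 had the highest median in soleus, 44.7 CPM, with a lowest value of 5.11, and Alb had a median of 18.5. The typical soleus sum therefore rests largely on Cyp2e1. One soleus library, C57Bl/6J RC day 33 animal 1RC210, had the lowest slow fibre sum, 294 CPM against a median of 27211, and the highest fast fibre sum, 163498 CPM. In adipose tissue, 8 adipocyte markers had a median sum of 15528 CPM, and BALB/cJ HFD animals 3HF201 (day 5) and 3HF208 (day 33) had 105 and 148 CPM. Member differences in which these 3 libraries hold an extreme value are also given without them, a choice made after seeing the data.

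The strain names are those of the labels. On RC in liver, Hc, in which DBA/2J mice are known to carry a loss of function, differed from its C57Bl/6J level by -2.20 ± 0.11 in DBA/2J (limma adjusted p = 9.29e-26) and by -0.20 in BALB/cJ (0.130). Nnt, part of which C57Bl/6J mice are known to lack, was not lowest in C57Bl/6J liver: DBA/2J differed from it by -0.97 ± 0.17 (limma adjusted p = 4.99e-06) and BALB/cJ by -0.18 (0.406). In soleus Nnt was higher than in C57Bl/6J by 1.12 ± 0.19 in BALB/cJ (limma adjusted p = 2.06e-06) and differed by 0.36 in DBA/2J (0.130). A count over the whole gene does not show the missing part alone.

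Per kilobase of transcript, Pck1 was the most abundant member in liver, with a median of 1159 CPM per kb and a range from 198 to 2553 over the 72 libraries. Fbp1 followed with a median of 721 (443 to 1321) and G6pc with 230 (30.7 to 736). Pcx had a median of 163 (103 to 304), Pklr 147 (31.2 to 279) and Slc37a4 97.5 CPM per kb (39.2 to 144). The ranges of neighbouring genes in this order overlapped. In soleus the medians were 15.2 CPM per kb for Fbp2, 11.99 for Pcx, 10.1 for Slc37a4 and 8.89 for Pck1, and below 1 for Fbp1, Pklr and G6pc. In adipose tissue Pck1 had a median of 507 CPM per kb and Pcx of 214, Slc37a4 of 7.29 and Fbp2 of 1.18, with the others below 1. The tissues were normalized apart, so these levels were set side by side without a test.

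In liver Pck1, Slc37a4 and Pklr were lower on HFD, that is a gluconeogenic enzyme, the glucose phosphate carrier and the glycolytic enzyme together. Over all strains and days, HFD against RC gave 3 lower and 0 higher of the 6 members, where 21.2% of the 12611 genes tested passed (limma, adjusted p below 0.05). Levels are log2 CPM throughout, and differences are in log2 units with their standard error (SE). Pck1 had means of 11.20 ± 0.86 in the HFD animals and 11.77 ± 0.55 in the RC animals (SD, n = 36 per diet), for a difference of -0.57 ± 0.11 (SE, limma adjusted p = 8.36e-05). Slc37a4 was 7.54 ± 0.48 on HFD against 7.95 ± 0.25 on RC, a difference of -0.41 ± 0.06 (limma adjusted p = 1.02e-06). Pklr was 8.43 ± 0.76 on HFD and 8.88 ± 0.40 on RC, a difference of -0.46 ± 0.09 (limma adjusted p = 0.000206).

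The other members did not pass over all strains and days. G6pc differed by -0.08 ± 0.13 (limma adjusted p = 0.735), Fbp1 by -0.06 ± 0.04 (0.362) and Pcx by 0.09 ± 0.04 (0.155). After quantile normalization of the table Pcx passed, at 0.15 (limma adjusted p = 0.00676). The median difference of the 6 members was -0.24. Bulk tissue cannot tell fewer cells of a type from less RNA per cell. The summed hepatocyte markers ran from 85041 to 145626 CPM on HFD (median 103488) and from 90080 to 156511 on RC (median 116229), 3 of the 7 markers were lower on HFD, and the part of this in the member results was not tested. Across the 72 libraries, without subtracting strain means, the sum went with Pck1 at r = 0.528, with Slc37a4 at 0.335 and with Pklr at 0.183. These points share strains, diet groups and library totals.

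**Figure D1:**
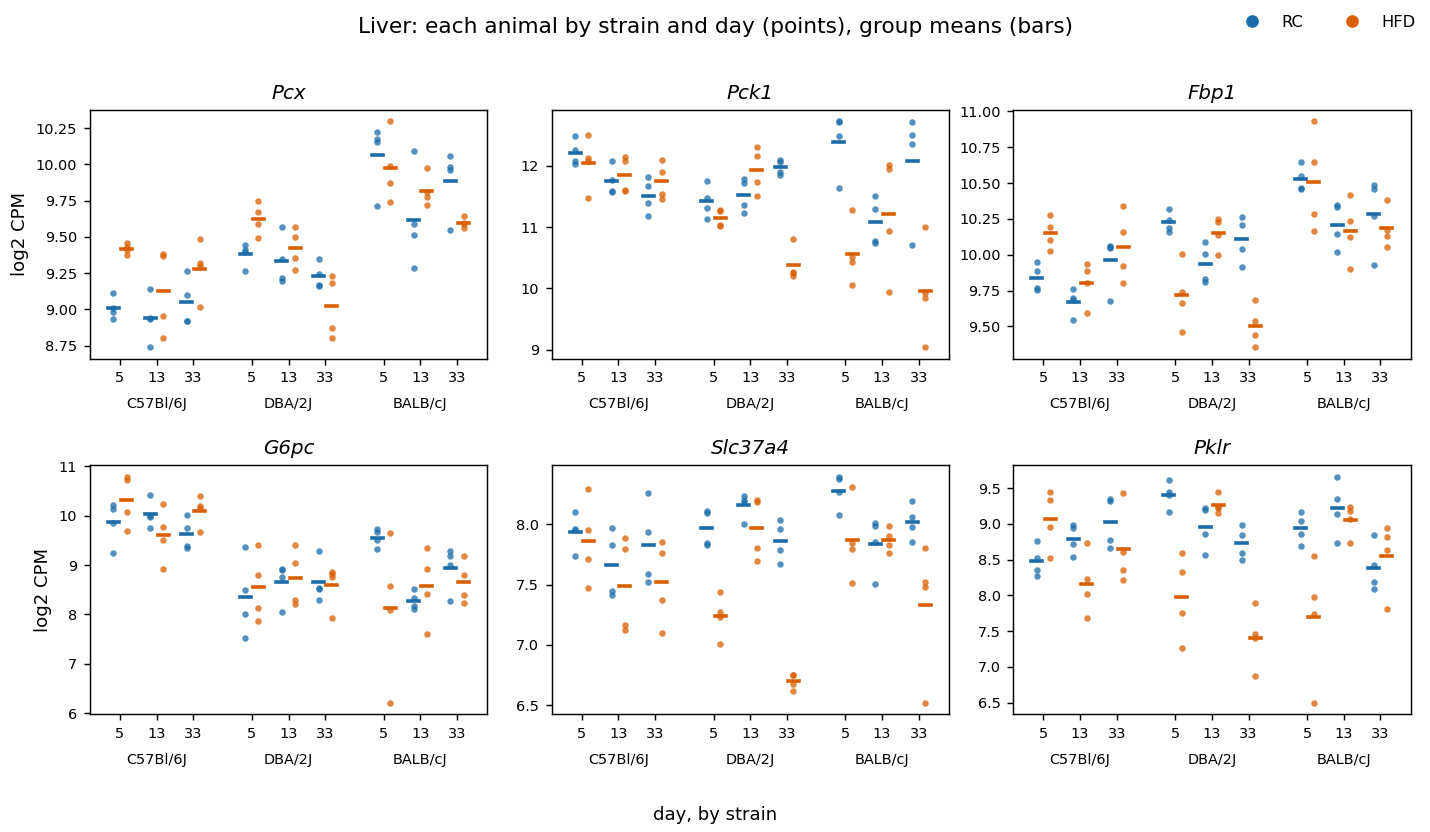
Log2 CPM of the 6 members in each liver (points, 1 per animal) against day of collection, by strain and diet, with bars at the means of the groups of 4. Pck1 in BALB/cJ on HFD lies low on days 5 and 33 and among the RC animals on day 13, and Slc37a4 in DBA/2J on day 33 lies between 6.62 and 6.75 on HFD and between 7.67 and 8.04 on RC.

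The strains differed. In C57Bl/6J 1 member was higher and 0 lower, where 2.31% of genes passed. In DBA/2J 3 were lower and 0 higher, against 21.6%, and in BALB/cJ 2 were lower and 0 higher, against 14.8%. By a test of the difference itself, the diet effect differed between strains in 4 of 6 members, where 15.7% of genes passed: Pck1 (limma F test, adjusted p = 0.00135), Fbp1 (0.00305), Slc37a4 (0.0392) and Pcx (0.0481). For Slc37a4 this call was lost on leaving out any of 20 libraries, and for Pcx on leaving out any of 52 libraries or after quantile normalization (0.177). Between DBA/2J and C57Bl/6J the diet effect was lower in DBA/2J for 3 members, against 10.3% of genes: Fbp1 by -0.48 ± 0.10 (limma adjusted p = 0.00122), Slc37a4 by -0.51 ± 0.15 (0.022) and Pklr by -0.67 ± 0.23 (0.0456), a call lost on leaving out any of 29 of 48 libraries and without the variance trend (0.0501). Between BALB/cJ and C57Bl/6J it was lower for 1 member, against 4.04%: Pck1 by -1.33 ± 0.27 (limma adjusted p = 0.00208). Between BALB/cJ and DBA/2J limma passed 0 members, with 3 at an unadjusted p below 0.05, where 8.61% of genes passed, and Pck1 differed by -0.78 ± 0.27 (limma adjusted p = 0.0543).

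The days differed as well. With the strains averaged, 3 members were lower on HFD on day 5, against 6.48% of genes, and 4 on day 33, against 16.3%. On day 13 limma passed 0 members, with 1 at an unadjusted p below 0.05, and 2.05% of genes passed. Pck1 differed by -0.76 ± 0.19 on day 5 (limma adjusted p = 0.0067), 0.21 ± 0.19 on day 13 (0.708) and -1.16 ± 0.19 on day 33 (1.14e-05). Slc37a4 differed by -0.41 ± 0.11 on day 5 (limma adjusted p = 0.0109), -0.11 on day 13 (0.744) and -0.72 ± 0.11 on day 33 (2.68e-06). Pklr differed by -0.69 ± 0.16 on day 5 (limma adjusted p = 0.00314), -0.16 on day 13 (0.743) and -0.51 ± 0.16 on day 33 (0.0212), a call lost without BALB/cJ HFD animal 3HF208 (0.0608) and after quantile normalization (-0.44, 0.0548). Fbp1 passed on day 33 at -0.20 ± 0.07 (limma adjusted p = 0.0475), a call lost on leaving out any of 16 of the 24 libraries of that day and after quantile normalization (-0.043, 0.743). The test of diet by day passed for 2 of 6 members, against 3.35% of genes: Pck1 (limma F test, adjusted p = 0.00309) and Slc37a4 (0.0351), the latter lost on leaving out any of 14 libraries or after quantile normalization (0.0854).

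**Figure D2:**
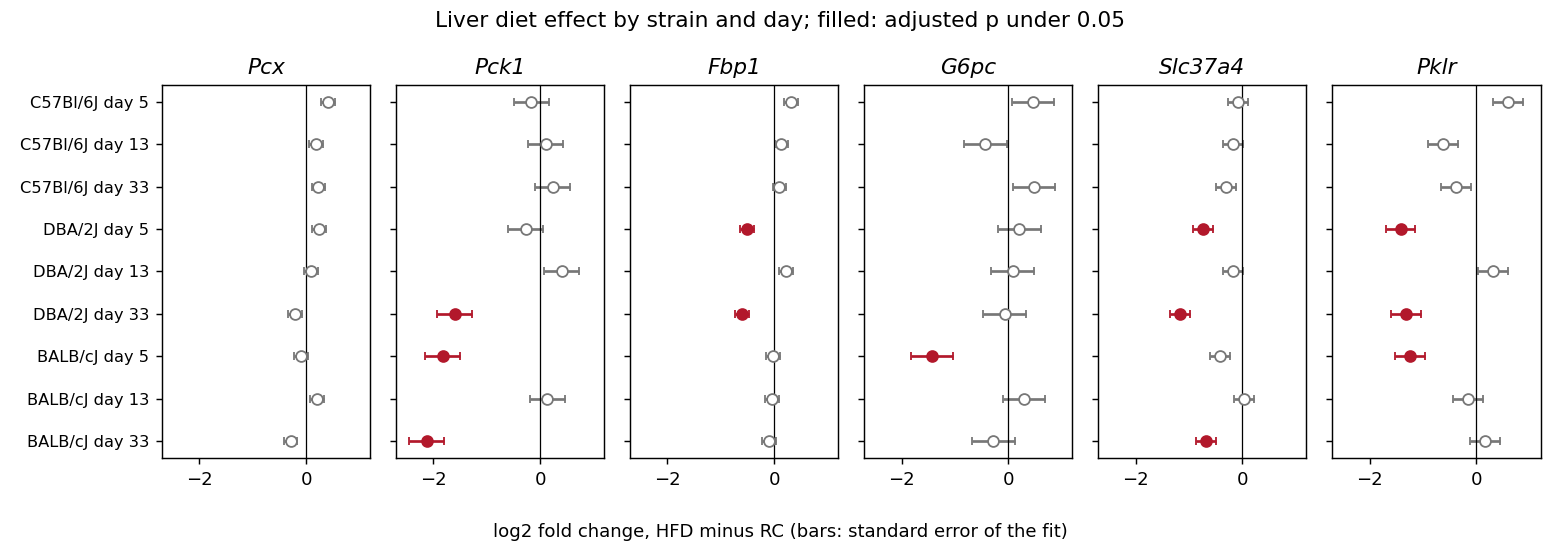
Difference in log2 CPM, HFD minus RC, for the 6 liver members in each strain and day (points, with bars of 1 SE), filled where the limma adjusted p was below 0.05. Filled points lie below 0 in DBA/2J and BALB/cJ on days 5 and 33, and no point is filled on day 13 or in C57Bl/6J.

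Pcx, which opens the route, was the member that rose in C57Bl/6J. Beside the groups of 4 that did not overlap, in the following, stand the shares of all liver genes without overlap: 4.39% in C57Bl/6J on day 5, 18% and 19% in DBA/2J on days 5 and 33, and 10.1% and 14.9% in BALB/cJ on those days. On day 5 the C57Bl/6J animals had 9.38, 9.41, 9.43 and 9.46 on HFD and 8.93, 8.98, 9.01 and 9.11 on RC. The groups did not overlap, although the difference of 0.41 ± 0.13 had a limma adjusted p of 0.222. The values were 8.80, 8.96, 9.37 and 9.38 on HFD against 8.74, 8.93, 8.94 and 9.14 on RC on day 13, and 9.01, 9.30, 9.32 and 9.49 against 8.92, 8.92, 9.10 and 9.26 on day 33, with overlap on both days. Over the 3 days Pcx differed by 0.28 ± 0.07 in C57Bl/6J (limma adjusted p = 0.0283), a call lost on leaving out any of 7 libraries and in a fit of that strain alone (0.0637). In DBA/2J on day 5 the HFD animals, at 9.49, 9.59, 9.67 and 9.75, also lay above the RC animals, at 9.26, 9.40, 9.41 and 9.45, with a difference of 0.25 (limma adjusted p = 0.268), where 18% of genes did not overlap. Over these days Pcx differed by 0.04 ± 0.07 in DBA/2J (limma adjusted p = 0.734) and by -0.06 ± 0.07 in BALB/cJ (0.636).

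Pck1, the carboxykinase, showed its largest differences in BALB/cJ. BALB/cJ animals on day 5 had 10.05, 10.44, 10.52 and 11.27 on HFD and 11.64, 12.49, 12.72 and 12.73 on RC, without overlap. The difference was -1.83 ± 0.33, or 3.55-fold lower (limma adjusted p = 0.000123), where 12.5% of genes and 3 of the 6 members passed. On day 33 the values were 9.04, 9.84, 9.92 and 11.004 on HFD and 10.71, 12.36, 12.51 and 12.72 on RC, a difference of -2.13 ± 0.33, or 4.36-fold lower (limma adjusted p = 2.13e-05). RC animal 3RC259 lay below the highest HFD animal, so the groups overlapped by that animal. On that day 9.59% of genes and 2 members passed. On day 13 they were 9.94, 10.93, 11.95 and 12.02 on HFD and 10.74, 10.77, 11.29 and 11.51 on RC. There the HFD animals lay on both sides of the RC animals, and the difference was 0.13 (limma adjusted p = 0.999). In BALB/cJ on day 13 limma passed 0 members, with 0 at an unadjusted p below 0.05, and 0.365% of genes passed.

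The RC animals themselves moved with the day in BALB/cJ. On RC, Pck1 was 1.32 ± 0.33 lower on day 13 than on day 5 (log2FC -1.32, limma adjusted p = 0.00334), as were G6pc, at -1.28 ± 0.40 (0.0197), and Pcx, at -0.45 ± 0.13 (0.0115). These were 3 of 6 members, against 17.2% of genes. The G6pc call was lost without 3RC203, 3RC228 or 3RC255 and after quantile normalization (0.0629). The Pcx call was lost without 3RC203 or 3RC230, after quantile normalization (0.223) and with the range of the animal number as a covariate (0.252). Averaged over strains, days differed on RC in 1 of 6 members, Fbp1 (limma F test, adjusted p = 0.0319), against 10.4% of genes, a call lost after quantile normalization (0.55) and without any of 7 libraries.

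In DBA/2J the fall of Pck1 was seen on day 33. The HFD animals had 10.20, 10.24, 10.26 and 10.81 and the RC animals 11.84, 11.90, 12.06 and 12.10, so the groups did not overlap. The difference was -1.60 ± 0.33 (limma adjusted p = 0.000356), where 15.9% of genes and 4 members passed. On day 5 the values were 11.01, 11.03, 11.26 and 11.28 against 11.13, 11.31, 11.48 and 11.76, and on day 13 they were 11.50, 11.74, 12.16 and 12.32 against 11.22, 11.37, 11.72 and 11.78. These groups overlapped, with differences of -0.27 (limma adjusted p = 0.685) and 0.40 (0.589). In DBA/2J 6.97% of genes passed on day 5, with 3 members, and 1.91% on day 13, where limma passed 0 members, with 0 at an unadjusted p below 0.05.

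In C57Bl/6J the diets overlapped in Pck1. On day 5 they had 11.48, 12.07, 12.13 and 12.50 on HFD and 12.02, 12.08, 12.26 and 12.49 on RC, and on day 33 they had 11.46, 11.55, 11.90 and 12.10 on HFD and 11.18, 11.39, 11.68 and 11.82 on RC. Over the 3 days Pck1 differed by 0.06 ± 0.19 in C57Bl/6J (limma adjusted p = 0.964), by -0.49 ± 0.19 in DBA/2J (0.0555) and by -1.27 ± 0.19, or 2.42-fold lower, in BALB/cJ (3.53e-06). By day, limma passed 0 members in C57Bl/6J: 3 had an unadjusted p below 0.05 on day 5, 1 on day 13 and 0 on day 33, while 0.135%, 0.317% and 0.912% of genes passed.

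The change of the diet effect with the day was tested in each strain. In DBA/2J it passed for 3 of 6 members, against 3.38% of genes: Fbp1 (limma F test, adjusted p = 0.00498), Pklr (0.00683) and Pck1 (0.0176). In BALB/cJ it passed for 2, against 4.09%: Pck1 (limma F test, adjusted p = 0.00264) and Pklr (0.0487). In a fit of the BALB/cJ libraries alone these became 0.187 and 0.226, and the Pklr call was lost on leaving out any of 19 of the 24 libraries. In C57Bl/6J limma passed 0 members, with 1 at an unadjusted p below 0.05, against 0.0159% of genes. The DBA/2J animals of days 5 and 33 were numbered from 2HF200 to 2HF211 and from 2RC200 to 2RC211. Those of day 13 were numbered from 2HF230 to 2HF255 and from 2RC228 to 2RC231. In this strain day 13 therefore cannot be told apart from the range of the animal number, whose meaning the labels do not give. The range was also uneven between the diets in some combinations of strain and day, DBA/2J on day 13 among them. In BALB/cJ on day 33 the HFD animals were 3HF208, 3HF256, 3HF258 and 3HF259. The RC animals there were 3RC208, 3RC209, 3RC211 and 3RC259.

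Fbp1, the hepatic fructose bisphosphatase, fell in DBA/2J. On day 5 the DBA/2J animals had 9.46, 9.66, 9.74 and 10.004 on HFD and 10.16, 10.19, 10.24 and 10.32 on RC. On day 33 they had 9.36, 9.44, 9.54 and 9.68 on HFD and 9.92, 10.04, 10.21 and 10.26 on RC. The groups did not overlap on either day, and the differences were -0.51 ± 0.13 (limma adjusted p = 0.00617; 0.0547 without 2HF202) and -0.60 ± 0.13 (0.000494). On day 13 the difference was 0.22 (limma adjusted p = 0.396), with 10.002, 10.14, 10.23 and 10.25 on HFD against 9.81, 9.83, 10.01 and 10.09 on RC. In C57Bl/6J on day 5 the order was the opposite, with 10.03, 10.11, 10.19 and 10.28 on HFD above 9.75, 9.77, 9.88 and 9.95 on RC, at 0.31 ± 0.13 (limma adjusted p = 0.401). Over the 3 days Fbp1 differed by -0.30 ± 0.07 in DBA/2J (limma adjusted p = 0.00186), 0.18 ± 0.07 in C57Bl/6J (0.23) and -0.05 ± 0.07 in BALB/cJ (0.671).

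At the last step Slc37a4, the carrier, passed over all strains and days, and G6pc, the phosphatase, passed in a single combination of strain and day. No test compared these genes with each other, and the SE was larger for G6pc. In DBA/2J, Slc37a4 was 6.62, 6.68, 6.75 and 6.75 on HFD and 7.67, 7.79, 7.96 and 8.04 on RC on day 33. On day 5 it was 7.004, 7.23, 7.27 and 7.44 on HFD and 7.83, 7.85, 8.10 and 8.11 on RC. Both days were without overlap, with differences of -1.16 ± 0.19 (limma adjusted p = 7.86e-06) and -0.73 ± 0.19 (0.00797). On day 13 the values of 7.70, 7.81, 8.18 and 8.20 on HFD overlapped those of 8.002, 8.18, 8.20 and 8.24 on RC, at -0.18 (limma adjusted p = 0.68). In BALB/cJ on day 33, 6.52, 7.48, 7.52 and 7.81 on HFD lay below 7.85, 7.97, 8.06 and 8.19 on RC. That difference of -0.69 ± 0.19 (limma adjusted p = 0.0115) fell to -0.42 (0.166) without 3HF208, the animal at 6.52, and was lost without 3RC208, after quantile normalization (0.0562) and in a fit of that strain alone (0.055). Over the 3 days Slc37a4 differed by -0.69 ± 0.11 in DBA/2J (limma adjusted p = 2.04e-06), by -0.36 ± 0.11 in BALB/cJ (0.0181; 0.0631 without 3HF208, 0.0916 after quantile normalization and 0.0576 in a fit of that strain alone) and by -0.19 ± 0.11 in C57Bl/6J (0.498).

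G6pc had no combination of strain and day in which the diets did not overlap. In BALB/cJ on day 5 the HFD animals spread from 6.21 to 9.64, with 8.09 and 8.57 between, and the RC animals lay close together at 9.32, 9.51, 9.67 and 9.74. The difference was -1.43 ± 0.40 (limma adjusted p = 0.0126), but -0.79 (0.204) without 3HF203, the animal at 6.21, and 0.0714 in a fit of that strain alone. In C57Bl/6J on day 5 the values were 9.70, 10.08, 10.73 and 10.79 on HFD and 9.25, 9.86, 10.14 and 10.21 on RC, at 0.46 (limma adjusted p = 0.828). With the days averaged G6pc differed by 0.17 ± 0.23 in C57Bl/6J (limma adjusted p = 0.847), 0.07 ± 0.23 in DBA/2J (0.862) and -0.47 ± 0.23 in BALB/cJ (0.162).

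Pklr, the glycolytic enzyme, fell in DBA/2J on the same days as Slc37a4 and Fbp1. On day 5 it was 7.26, 7.75, 8.32 and 8.59 on HFD and 9.16, 9.40, 9.44 and 9.61 on RC. On day 33 it was 6.88, 7.40, 7.46 and 7.89 on HFD and 8.49, 8.59, 8.84 and 8.99 on RC. Neither day showed overlap, and the differences were -1.42 ± 0.28 (limma adjusted p = 0.000353) and -1.32 ± 0.28 (0.000527). On day 13 it was 9.16, 9.22, 9.23 and 9.45 against 8.57, 8.85, 9.20 and 9.23, a difference of 0.30 (limma adjusted p = 0.638). In BALB/cJ on day 5 it was 6.50, 7.75, 7.98 and 8.56 on HFD and 8.70, 8.86, 9.04 and 9.17 on RC, without overlap, at -1.24 ± 0.28 (limma adjusted p = 0.00196).

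Pklr and Pck1 parted in BALB/cJ on day 33. There Pklr was 7.81, 8.63, 8.82 and 8.94 on HFD and 8.09, 8.19, 8.42 and 8.85 on RC, a difference of 0.16 (limma adjusted p = 0.777), while Pck1 was 4.36-fold lower. In C57Bl/6J on day 5 Pklr was 8.53, 8.96, 9.33 and 9.44 on HFD and 8.26, 8.35, 8.53 and 8.77 on RC, at 0.59 ± 0.28 (limma adjusted p = 0.495). With the days averaged Pklr differed by -0.81 ± 0.16 in DBA/2J (limma adjusted p = 0.000132), -0.41 ± 0.16 in BALB/cJ (0.0715) and -0.14 ± 0.16 in C57Bl/6J (0.817).

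On regular chow the strains differed in the same 3 of 6 members by each test against C57Bl/6J: G6pc was lower, and Fbp1 and Pcx were higher, in DBA/2J and in BALB/cJ. The F test over strains passed for these 3, against 67.2% of genes, so that their share was below that of all genes. G6pc had a mean of 9.84 ± 0.36 in C57Bl/6J, against 8.93 ± 0.61 in BALB/cJ and 8.55 ± 0.54 in DBA/2J (SD, n = 12 each). Pcx had means of 8.999 ± 0.14, 9.86 ± 0.31 and 9.31 ± 0.13, and Fbp1 of 9.82 ± 0.17, 10.34 ± 0.22 and 10.09 ± 0.17, in the same order. DBA/2J differed from C57Bl/6J by -1.29 ± 0.23 in G6pc (limma adjusted p = 4.5e-06), 0.31 ± 0.07 in Pcx (0.000386) and 0.27 ± 0.07 in Fbp1 (0.00201), where 48.1% of genes passed. BALB/cJ differed from C57Bl/6J by -0.92 ± 0.23 in G6pc (limma adjusted p = 0.000793), 0.86 ± 0.07 in Pcx (4.65e-15) and 0.52 ± 0.07 in Fbp1 (2.36e-08), where 46.8% passed. Between BALB/cJ and DBA/2J Pcx and Fbp1 passed, at 0.54 ± 0.07 (limma adjusted p = 1.52e-08) and 0.25 ± 0.07 (0.0038), against 42.1%, while G6pc differed by 0.37 (0.197). Pck1, the member of the largest difference between diets over all strains and days, had RC means of 11.83 ± 0.38, 11.85 ± 0.83 and 11.64 ± 0.33, again in that order.

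The rest of the gluconeogenic route was mixed in liver. Of 24 other enzymes and carriers, 2 were higher and 6 lower on HFD over all strains and days, with a median of -0.03. In that comparison 21.2% of all genes passed. Ldha, which turns lactate into pyruvate and back, was higher by 0.44 ± 0.04 (limma adjusted p = 2.25e-11), and the alanine aminotransferase Gpt was lower, at -0.30 ± 0.04 (1.11e-07). The hepatic glucose transporter Slc2a2 was lower, at -0.33 ± 0.06 (5.35e-05), as was the aspartate aminotransferase Got1, at -0.61 ± 0.13 (0.000213). Of 13 genes of hepatic glycolysis and its switch, 0 were higher and 3 lower by limma, a share near the 21.2% of all genes. Their median was -0.02, and among those lower was Pfkfb1, whose enzyme makes and removes an activator of phosphofructokinase, at -0.37 ± 0.09 (limma adjusted p = 0.00122).

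Of 18 regulators of gluconeogenic genes, in BALB/cJ 5 were lower and 0 higher, with a median of -0.16: Klf15 at -0.56 ± 0.13 (limma adjusted p = 0.00266), the transcription factor gene Cebpb at -0.81 ± 0.20 (0.00308), the coactivator gene Ppargc1a at -0.71 ± 0.18 (0.00395), the insulin-regulated factor gene Foxo1 at -0.53 ± 0.14 (0.00758) and the kinase gene Sik1. In DBA/2J 3 were higher and 3 lower, with a median of -0.11: the glucocorticoid receptor gene Nr3c1 differed by -0.25 ± 0.06 (limma adjusted p = 0.000708), Creb1, whose protein binds the cyclic AMP response element, by 0.34 ± 0.08 (0.0013), Sik1 by -0.88 ± 0.23 (0.0029) and Irs1 by 0.46 ± 0.12 (0.00328). In C57Bl/6J limma passed 0 of the 18. The shares of all genes that passed were 14.8% in BALB/cJ, 21.6% in DBA/2J and 2.31% in C57Bl/6J. Whether a regulator's diet effect differed between strains was not tested.

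Of 10 genes of the fasting response, 4 were higher and 1 lower in DBA/2J (median 0.60) and 1 higher and 4 lower in BALB/cJ (median -0.33). Among all genes 21.6% passed in DBA/2J and 14.8% in BALB/cJ. In DBA/2J the fatty acid hydroxylase gene Cyp4a14 was higher by 6.24 ± 0.73 (limma adjusted p = 1.94e-09). In BALB/cJ the glucocorticoid-induced tyrosine aminotransferase gene Tat was lower, at -1.42 ± 0.25 (limma adjusted p = 6.65e-05), as were Angptl4, at -0.81 ± 0.20 (0.00405), and Igfbp1, at -1.31 (0.0122). Of 11 genes of the carbohydrate and lipogenic response, to which Pklr belongs by its regulation, 6 were lower and 0 higher over all strains by limma, against 21.2% of all genes. Their median was -0.37, and they were led by Thrsp at -1.38 ± 0.22 (limma adjusted p = 2.54e-06) and the desaturase gene Scd1 at -1.25 ± 0.23 (4.34e-05). In DBA/2J on day 33, where Pklr was low, 6 of these 11 were lower (median -0.96), against 15.9% of all genes. In BALB/cJ on day 33, where Pklr was not low, 2 were higher and 0 lower by limma (median 0.28), against 9.59% of all genes. Among those higher was Mlxipl, which encodes the carbohydrate response element binding protein, at 1.06 ± 0.22 (limma adjusted p = 0.00134). Pklr was also low on day 5, at -1.42 in DBA/2J and -1.24 in BALB/cJ, where the counts of this list are not reported here. Whether Pklr went with the list was not tested.

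Of 12 clock genes, 2 were higher and 5 lower in DBA/2J, where 21.6% of all genes passed. In BALB/cJ 1 was lower, a share below the 14.8% of all genes, and limma passed 0 in C57Bl/6J. Per1 was lower by -0.81 ± 0.22 in DBA/2J (limma adjusted p = 0.00485) and by -1.40 ± 0.22 in BALB/cJ (7.63e-06), and on day 33 it was -2.16 ± 0.38 in DBA/2J (3.63e-05) and -2.97 ± 0.38 in BALB/cJ (7.27e-07). Clock, at 0.86 ± 0.16 (limma adjusted p = 7.77e-05), and Arntl, at 2.15 ± 0.51 (0.00125), were higher in DBA/2J. The part of the hour of collection and of feeding in the member results was not tested.

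Over the 72 liver libraries, with strain means subtracted, the 3 genes of highest Pearson r with Pck1 among 6184 genes compared were Tat (0.913), Il6ra (0.906) and Pptc7 (0.877). For Slc37a4 they were Asl (0.894), Upp2 (0.880) and Etnk2 (0.865), for Pklr Enpep (0.831), Ces2g (0.803) and Cyb5r3 (0.795), for Pcx Gosr1 (0.748), Got2 (0.703) and Dnajc13 (0.691), and for G6pc Sgk1 (0.695), Slc25a25 (0.635) and Ddx3x (0.613). Among the members, Slc37a4 went with Fbp1 at r = 0.637, with Pck1 at 0.628 and with Pklr at 0.627, and G6pc with the others at 0.148 to 0.428. The points share libraries and diet groups, and the values are descriptions.

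In soleus the muscle fructose bisphosphatase Fbp2 rose on HFD, and Pcx and Slc37a4 fell. Over all strains and days 1 of the 7 members was higher and 2 were lower, where 17.4% of the 13637 genes tested passed. Fbp2 had means of 4.54 ± 0.44 in the HFD animals and 3.76 ± 0.81 in the RC animals (SD, n = 36 per diet), and its mean was higher on HFD in all 9 combinations of strain and day. Fbp2 differed by 0.78 over all libraries (limma adjusted p = 5.27e-07) and by 0.84 ± 0.10 without 1RC210 (1.48e-09). Pcx was 5.56 ± 0.46 on HFD and 5.81 ± 0.35 on RC, a difference of -0.25 ± 0.07 (limma adjusted p = 0.014), with a lower mean in 8 of 9 combinations. Without the 14 libraries of high hepatocyte markers the Pcx difference was -0.17 and the call was lost. Slc37a4 was 4.47 ± 0.24 on HFD and 4.83 ± 0.55 on RC, with a lower mean in 9 of 9.

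Groups without overlap were seen in 9.12%, 12.5% and 6.89% of all soleus genes on days 5, 13 and 33 of C57Bl/6J. For DBA/2J the shares were 14% on day 13 and 15.4% on day 33, and for BALB/cJ 4.48% on day 13. The rise of Fbp2 was largest in C57Bl/6J, the strain with the lowest Fbp2 on chow. On day 5 the C57Bl/6J animals had 4.31, 4.40, 4.43 and 4.95 on HFD and 2.21, 2.65, 2.70 and 3.52 on RC. On day 13 they had 4.31, 4.33, 4.38 and 4.47 on HFD and 2.16, 2.57, 2.97 and 3.08 on RC. The groups did not overlap, and the differences were 1.75 ± 0.33 (limma adjusted p = 0.00219) and 1.67 ± 0.33 (0.00394; 1.495, 0.0574, without 1RC228). On day 33 the values were 3.87, 3.93, 4.34 and 4.43 on HFD and 2.69, 2.89, 3.46 and 5.15 on RC, at 0.59 (limma adjusted p = 0.31), where the RC animal at 5.15 was 1RC210, the library of the lowest slow fibre sum. Without it the difference was 1.13 ± 0.31 (limma adjusted p = 0.0960). By day in C57Bl/6J, 1 member was higher and 0 lower on days 5 and 13, against 0.843% and 0.572% of genes, and 0 were higher and 1 lower on day 33, against 4.33%.

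**Figure D3:**
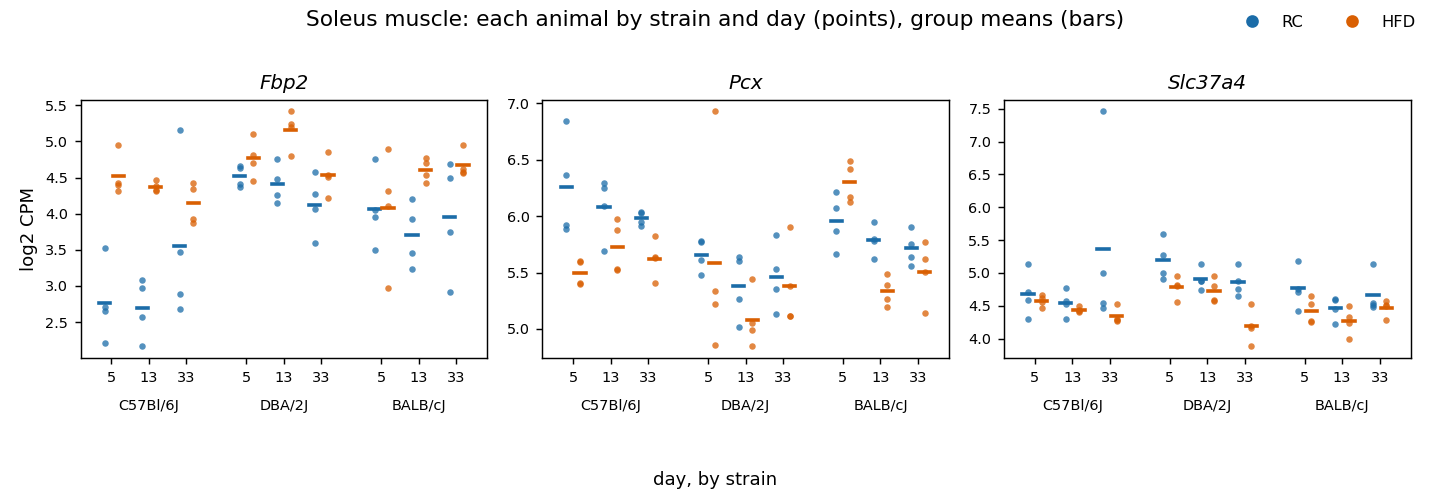
Log2 CPM of Fbp2, Pcx and Slc37a4 in each soleus (points, 1 per animal) against day of collection, by strain and diet, with bars at the means of the groups of 4. Fbp2 in C57Bl/6J on days 5 and 13 lies between 4.31 and 4.95 on HFD and between 2.16 and 3.52 on RC.

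Within strains, Fbp2 differed by 1.34 ± 0.19 in C57Bl/6J (limma adjusted p = 1.05e-06; 1.52, 1.33e-09, without 1RC210), 0.47 ± 0.19 in DBA/2J (0.115) and 0.55 ± 0.19 in BALB/cJ (0.0518). The difference between strains passed for Fbp2 alone of the 7 members, against 9.83% of genes (limma F test, adjusted p = 0.0391), and this was lost on leaving out any of 14 libraries. In DBA/2J on day 13 the Fbp2 values of 4.80, 5.20, 5.24 and 5.41 on HFD lay above 4.15, 4.26, 4.48 and 4.76 on RC, and in BALB/cJ on day 13 those of 4.42, 4.53, 4.71 and 4.77 lay above 3.23, 3.45, 3.92 and 4.21. In C57Bl/6J 1 member was higher and 1 lower, against 5.75% of genes. In DBA/2J and BALB/cJ limma passed 0 members, with 4 and 1 at an unadjusted p below 0.05, against 8.73% and 11.5%. The test of diet by day passed 0 members in limma, with 0 at an unadjusted p below 0.05, against 0.99%.

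Pcx, which refills oxaloacetate, fell in C57Bl/6J by -0.49 ± 0.13 (limma adjusted p = 0.0109). Without the 14 libraries of high hepatocyte markers this difference was -0.37 and the call was lost. The C57Bl/6J values were 5.40, 5.41, 5.59 and 5.60 on HFD against 5.88, 5.92, 6.36 and 6.84 on RC on day 5, and 5.41, 5.63, 5.64 and 5.82 against 5.91, 5.95, 6.02 and 6.04 on day 33. Neither day overlapped. In BALB/cJ on day 13 they were 5.19, 5.27, 5.39 and 5.49 on HFD and 5.62, 5.78, 5.79 and 5.95 on RC, again apart, although over the 3 days Pcx differed by -0.10 in BALB/cJ and -0.15 in DBA/2J without passing. Slc37a4 differed by -0.36 ± 0.09 over all strains and days (limma adjusted p = 0.00362), and by -0.28 ± 0.05 without 1RC210 (6.41e-05). Across the 72 libraries, without subtracting strain means, Slc37a4 went with the fast fibre sum at r = 0.655 and with the slow fibre sum at -0.608. The values were -0.0945 and -0.0881 for Fbp2 and 0.387 and -0.134 for Pcx. All these r values include 1RC210, which had the highest Slc37a4, the highest fast fibre sum and the lowest slow fibre sum. They were not computed without that library. The part of the fibre markers in these results was not tested. In DBA/2J on day 33 Slc37a4 was 3.88, 4.16, 4.19 and 4.53 on HFD and 4.65, 4.75, 4.88 and 5.14 on RC, without overlap, at -0.66 ± 0.27 (limma adjusted p = 0.183). In C57Bl/6J on day 33 it was 4.27, 4.28, 4.30 and 4.52 on HFD and 4.47, 4.55, 5.01 and 7.46 on RC, and the animal at 7.46 was 1RC210. The difference there was -1.03 ± 0.27 (limma adjusted p = 0.0205) with that animal and -0.33 (0.574) without it, and the call was also lost without 1HF258 or 1HF259 and in a fit of that strain alone (0.169).

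The hepatic members G6pc, Fbp1 and Pklr were near the detection limit in most soleus libraries and high in a few. At 0 reads were 23 of 72 libraries for G6pc, 23 for Pklr and 5 for Fbp1. These genes followed the summed hepatocyte markers across the 72 libraries, without subtracting strain means. There r was 0.954 for Fbp1, 0.904 for G6pc, 0.868 for Pklr and 0.678 for Pck1, against 0.404 for Pcx, 0.0463 for Slc37a4 and -0.257 for Fbp2. With the intestine markers r was 0.831 for Fbp1, 0.850 for G6pc, 0.803 for Pklr and 0.570 for Pck1. For Pcx it was 0.111, for Slc37a4 0.0009 and for Fbp2 -0.141. With the exocrine pancreas markers it was 0.498 for Fbp1, 0.558 for G6pc, 0.522 for Pklr and 0.522 for Pck1. Which tissue these reads came from was not tested. Per 1000 CPM of hepatocyte markers, Fbp1 was 5.90 to 10.4 CPM in the 14 soleus libraries of high marker sum (median 8.42) and 6.04 to 17.8 in liver (median 9.51). G6pc was 2.28 to 24.4 CPM there (median 6.18) against 0.816 to 16.3 in liver (median 4.85), and Pklr 1.07 to 6.39 (median 2.96) against 0.995 to 8.55 (median 3.96). The ranges overlapped for each gene.

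**Figure D4:**
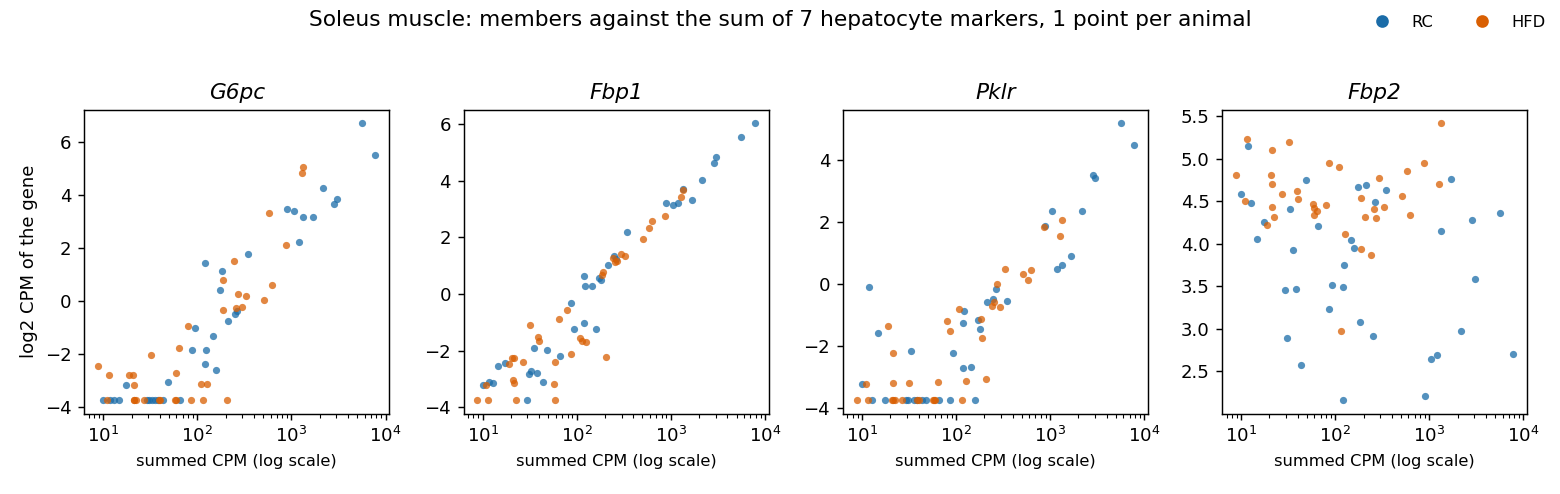
CPM of G6pc, Fbp1, Pklr and Fbp2 in the 72 soleus libraries (points, by diet) against the summed CPM of 7 hepatocyte markers, on log axes. G6pc, Fbp1 and Pklr climb with the marker sum, which runs from 8.81 to 7808 CPM, and Fbp2 does not.

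The diet differences of these genes were -1.08 ± 0.62 for G6pc (limma adjusted p = 0.228), -1.11 ± 0.58 for Fbp1 (0.179) and -0.89 ± 0.48 for Pklr (0.196), and without the 14 libraries they turned to 0.12, 0.14 and 0.12. Pck1 differed by 0.02 ± 0.27 (limma adjusted p = 0.974). The same exclusion left Pcx at -0.17 over all strains (limma adjusted p = 0.226) and at -0.37 in C57Bl/6J (0.370), both past the threshold before. It left Fbp2 at 0.86 in C57Bl/6J on day 5 (limma adjusted p = 1), with 1 of the 4 RC animals remaining, and ended the difference of its diet effect between strains (0.618). The summed markers had a median of 82.9 CPM on HFD and 134 on RC, and their part in the member results was not tested.

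On chow, strains differed in soleus in 4 of the 7 members by the F test, against 61.4% of genes, and days in 0 by limma, with 1 at an unadjusted p below 0.05, against 7.85%. Fbp2 in DBA/2J exceeded that in C57Bl/6J by 1.35 ± 0.19 (limma adjusted p = 4.52e-08), and in BALB/cJ it did so by 0.90 ± 0.19 (9.55e-05), where 37% and 44.5% of genes passed. The second of these became 0.59 (0.06) without the 14 libraries of high hepatocyte markers. Pcx differed between DBA/2J and C57Bl/6J by -0.60 ± 0.13 (limma adjusted p = 0.000101) and between BALB/cJ and DBA/2J by 0.32 ± 0.13 (0.0396), the latter against 40.4% of genes and lost on leaving out any of 11 libraries. G6pc (limma F test, adjusted p = 0.0455) and Pklr (0.0413) also passed over strains, and reached 0.728 and 0.984 without those 14 libraries.

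Beside the members, 2 of 25 other genes of the gluconeogenic route were higher and 4 lower in soleus over all strains (median -0.04), led by Gapdh at -0.26 ± 0.04 (limma adjusted p = 1.26e-05) and the glycerol channel gene Aqp7 at 0.37 ± 0.07 (0.0002). In C57Bl/6J 7 were higher and 0 lower by limma, among them the mitochondrial pyruvate carrier gene Mpc2 at 0.28 ± 0.06 (limma adjusted p = 0.000764) and the malate dehydrogenase gene Mdh1 at 0.32 ± 0.07 (0.000903). Among all soleus genes 17.4% passed over all strains and 5.75% in C57Bl/6J. Of 14 genes of glycolysis and its switch 2 were higher and 5 lower, with Pdk4, which holds back pyruvate oxidation, at 0.59 ± 0.16 (limma adjusted p = 0.00574) and Pkm, the muscle pyruvate kinase, at -0.19 ± 0.05 (0.00805). The genes of highest Pearson r with Fbp2 over the 72 soleus libraries, with strain means subtracted and among 6704 genes compared, were Serinc2 (0.720), Hspd1 (0.677) and Crat (0.666), a description over libraries that share diet groups.

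In visceral adipose tissue Pcx fell on HFD. Its means were 9.34 ± 1.11 in the HFD animals and 10.20 ± 0.83 in the RC animals (SD, n = 36 per diet), for a difference of -0.86 ± 0.22 (limma adjusted p = 0.0191), or 1 of 7 members lower and 0 higher, where 2.67% of the 16541 genes tested passed. Its mean was lower on HFD in 7 of 9 combinations of strain and day. Leaving out any 1 library kept it past the threshold, at -0.94 to -0.80. Pck1, the glyceroneogenic enzyme of fat cells, differed by -0.42 ± 0.34 (limma adjusted p = 0.631), Slc37a4 by 0.20 (0.563) and Fbp2 by -0.16 (0.864). By strain limma passed 0 members. At an unadjusted p below 0.05 were 3 in BALB/cJ, where 0.435% of genes passed, 1 in DBA/2J (0.411%) and 0 in C57Bl/6J (0.115%). Pck1 differed by -1.94 ± 0.59 in BALB/cJ (limma adjusted p = 0.0853; -0.87, 0.588, without 3HF201 and 3HF208), against 0.64 in C57Bl/6J and 0.05 in DBA/2J. Without these 2 libraries Pck1 over all strains and days was -0.06 (limma adjusted p = 0.964), Slc37a4 0.04 (0.932), Fbp2 -0.04 (0.977) and Pcx -0.78 ± 0.22 (0.0300). Pcx differed by -1.06 in BALB/cJ (limma adjusted p = 0.129; -0.84, 0.552, without them), -0.46 in C57Bl/6J and -1.05 in DBA/2J (0.339). Tests of diet by strain and of diet by day passed 0 members in limma, with 1 each at an unadjusted p below 0.05, against 0.0846% and 0% of genes.

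The groups did not overlap for Pcx on day 33 in 2 strains, as for 11.6% of all genes in DBA/2J and 17.3% in BALB/cJ. In DBA/2J it was 8.86, 9.23, 9.43 and 9.60 on HFD and 10.35, 10.71, 10.95 and 11.46 on RC, at -1.59 (limma adjusted p = 0.563). In BALB/cJ it was 7.68, 8.05, 8.06 and 8.26 on HFD and 8.99, 10.71, 10.74 and 10.85 on RC, at -2.31 ± 0.66 (limma adjusted p = 0.0266), where 10.7% of genes and 3 members passed, all lower. The others were Pck1, with 3.06, 8.11, 9.34 and 9.55 on HFD and 9.92, 10.73, 11.69 and 11.74 on RC, at -3.50 ± 1.03 (limma adjusted p = 0.0288), and Fbp2, with -3.81, -0.95, 0.00 and 1.92 on HFD and 0.35, 1.31, 2.17 and 2.81 on RC, at -2.37 ± 0.81 (0.0473). The lowest Pck1 and Fbp2 values belonged to 3HF208, the library of 148 CPM of adipocyte markers.

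**Figure D5:**
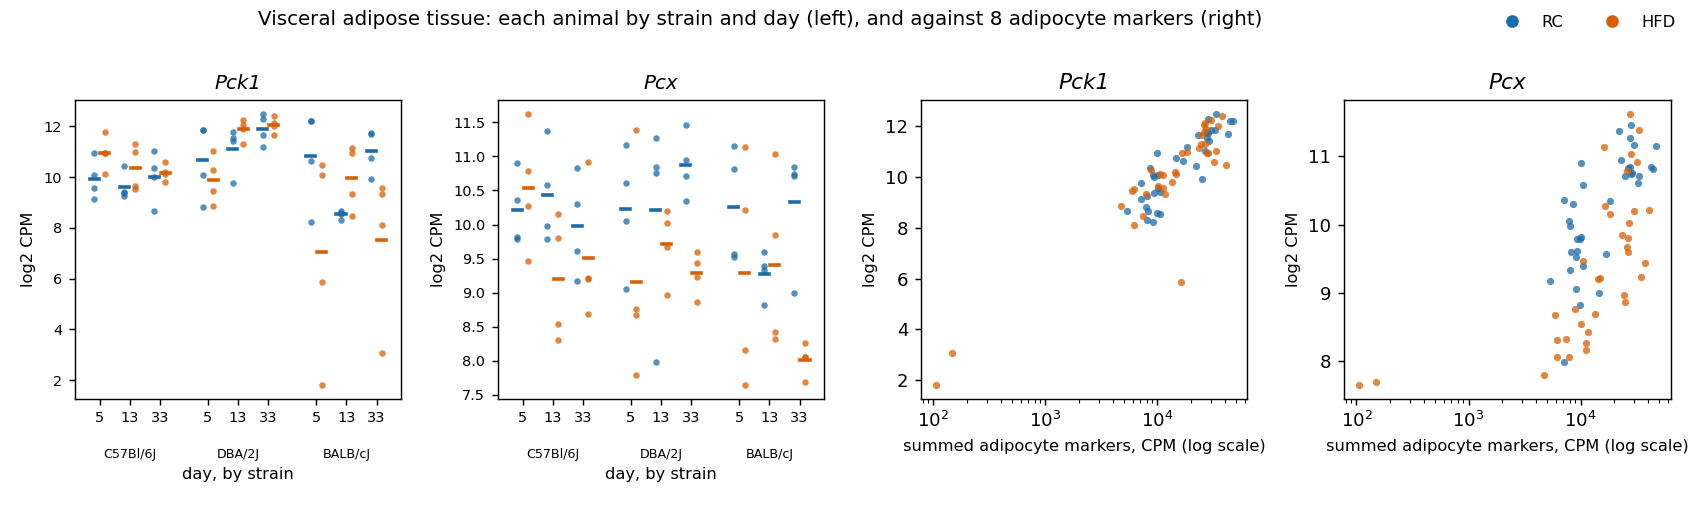
Log2 CPM of Pck1 and Pcx in each adipose sample (points, 1 per animal) against day of collection, by strain and diet, with bars at the means of the groups of 4, and against the summed CPM of 8 adipocyte markers on a log axis. The 2 libraries at 105 and 148 CPM of markers hold the lowest Pck1 values, 1.80 and 3.06, and Pcx in BALB/cJ on day 33 lies between 7.68 and 8.26 on HFD and between 8.99 and 10.85 on RC.

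Without 3HF208 the day 33 differences in BALB/cJ were -2.02 for Pck1 (limma adjusted p = 0.139), -2.20 for Pcx (0.0979) and -1.34 for Fbp2 (0.197), and none passed in a fit of that strain alone or without both libraries of low adipocyte markers (0.0778, 0.0619 and 0.184). All 3 calls were also lost without 3RC208 (limma adjusted p = 0.0679 for Pck1, 0.0622 for Pcx and 0.125 for Fbp2), 3RC209 (0.0971, 0.0949 and 0.131) or 3RC259 (0.0607, 0.0872 and 0.106), and that of Fbp2 without 3HF256 (0.0745) and after quantile normalization (0.0888). The adipocyte markers moved the same way there, 6 of 8 lower with a median of -3.12, with sums from 148 to 11105 CPM on HFD and from 14707 to 42370 on RC. Over the 72 libraries, without subtracting strain means, the marker sum went with Pck1 at r = 0.900, with Pcx at 0.641, with Fbp2 at 0.622 and with Slc37a4 at -0.452. Over all strains and days, where Pcx passed, the marker sum had a median of 16382 CPM on HFD and 12638 on RC, and its part in the Pcx result was not tested. On day 5 in BALB/cJ, Pck1 was 1.80, 5.88, 10.06 and 10.47 on HFD and 8.24, 10.64, 12.19 and 12.21 on RC, at -3.77 (limma adjusted p = 0.202), and the animal at 1.80 was 3HF201. Without it the difference was -2.02 ± 0.93 (limma adjusted p = 1).

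The remaining members of adipose tissue were high in single libraries. DBA/2J HFD day 33 animal 2HF209 had the highest Fbp2, at 7.36, and Pklr, at 6.79, with an intestine marker sum of 7808 CPM where the other libraries had 39.7 or less. DBA/2J HFD day 5 animal 2HF200 had the highest G6pc, at 5.61, and Fbp1, at 5.42, with a hepatocyte marker sum of 4964 CPM against a median of 1503. Several BALB/cJ libraries had higher sums, up to 16500 CPM in 3RC209, without the highest G6pc or Fbp1. Of this list Cyp2e1 reached 16371 CPM in adipose tissue and Alb 3096 CPM. Slc37a4 was highest in 3HF201 and 3HF208, at 7.11 and 7.03, and at most 5.06 elsewhere. The 1 measured exocrine pancreas marker was highest in 3HF201, at 842 CPM against a median of 6.60, and the macrophage sum was lowest in 3HF208, at 99.98 CPM against a median of 1189. The slow fibre sums of both, 2456 and 1989 CPM, lay above the median of 245. Atp2a2 alone reached 2453 CPM in adipose tissue, so the slow fibre sum of 3HF201 was nearly all that gene. The fast fibre sums of 3HF201 and 3HF208 were 4.09 and 7.54 CPM. Slc37a4 went with the exocrine pancreas marker at r = 0.637 and with the macrophage sum at -0.721, and the part of exocrine cells and macrophages was not tested. On chow strains differed in 1 of 7 members, Fbp2 (limma F test, adjusted p = 0.000282), against 41% of genes, with DBA/2J above C57Bl/6J by 2.38 ± 0.47 (limma adjusted p = 8.96e-05), where 41.7% passed. Days on chow differed in 0 by limma, with 0 at an unadjusted p below 0.05, against 0.0242%.

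Of 11 genes of the carbohydrate and lipogenic response, 6 were lower and 0 higher over all strains and days by limma, with a median of -1.44. Among all adipose genes 2.67% passed over all strains and days. Elovl6, which lengthens fatty acids, was lower, at -2.22 ± 0.27 (limma adjusted p = 2.63e-07), as were the fatty acid synthase gene Fasn, at -2.10 ± 0.33 (5.08e-05), and the citrate lyase gene Acly, at -1.51 ± 0.26 (0.000285). Of 25 other genes of the gluconeogenic route 4 were lower and 0 higher by limma, led by the mitochondrial pyruvate carrier gene Mpc1 at -0.85 ± 0.20 (limma adjusted p = 0.00908), while of 11 genes of glyceroneogenesis and triglyceride turnover, the setting of Pck1, 1 was lower. The genes of highest Pearson r with Pcx among 8138 genes compared were Mpc1 (0.966), Pdha1 (0.966) and Gbe1 (0.951), and with Pck1 they were Cidec (0.927), Ces1d (0.922) and Angptl4 (0.920), over 72 libraries that share diet groups and differ in their adipocyte marker sum.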

How the data were processed

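The deposited files hold log2 CPM per Ensembl gene, 1 table per tissue. Per the submitters' processing notes, STAR 2.5.3a, edgeR and GRCm38 were used. Per the labels' protocols, libraries were stranded TruSeq mRNA, sequenced as single reads. The low values are whole reads after a prior count of 0.25 (liver) or 2 reads (soleus, adipose), which gave library sizes and CPM; a fold is on this scale and understates the change of low genes.

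Groups were read from the labels (216 of 224 samples; 8 liver libraries of 4 animals were not analysed here). Genes at log2 CPM of 0 or more in 4 libraries entered limma 3.58.1 (R 4.3.3) with a variance trend and 18 group means per tissue. Within each tissue and contrast, p-values of all genes were adjusted together by Benjamini-Hochberg, and 0.05 was the threshold. Other values came from Python 3.11.15 with pandas 2.3.3, and the test was tested on simulated data. Named genes are the members, up to 4 genes of smallest p from each list, and the 3 most correlated genes; some of these are not reported here. Members and lists were chosen with earlier results of these data known. Alternatives changed the filter, normalization, prior count, variance trend, covariates and libraries. The values are log2, so no count test was run.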

Additional observations from a re-analysis of the deposited data

Results flagged for a closer look

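In 12 of 234 groups of 4 animals looked at, 1 animal stood far from the other 3, and chance marks about 1 in 20 groups. In liver these were Pck1 in DBA/2J HFD day 33 animal 2HF211 (log2 CPM 10.81), G6pc in DBA/2J HFD day 33 animal 2HF210 (7.94), Fbp1 in C57Bl/6J RC day 33 animal 1RC211 (9.68) and Pcx in BALB/cJ RC day 5 animal 3RC251 (9.72). In soleus they were Pck1 in C57Bl/6J HFD day 13 animal 1HF253 (5.71), Slc37a4 in C57Bl/6J HFD day 33 animal 1HF257 (4.52), Slc37a4 in BALB/cJ RC day 33 animal 3RC211 (5.14) and Fbp2 in BALB/cJ HFD day 33 animal 3HF208 (4.95). In adipose tissue they were Pck1 in C57Bl/6J RC day 13 animal 1RC254 (10.45), Slc37a4 in BALB/cJ HFD day 33 animal 3HF208 (7.03), Pcx in DBA/2J RC day 13 animal 2RC231 (7.98) and Pcx in BALB/cJ RC day 33 animal 3RC211 (8.99). Animals 3HF208 and 3RC211 each appear in 2 tissues.

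The effect of the diet differed between groups of mice, by limma F tests of the difference, in 7 member results. In liver it differed between strains for Pck1 (adjusted p = 0.00135), Slc37a4 (0.0392), Fbp1 (0.00305) and Pcx (0.0481), and between days for Pck1 (0.00309) and Slc37a4 (0.0351). In soleus it differed between strains for Fbp2 (0.0391). The shares of all genes were 15.7% between strains and 3.35% between days in liver, and 9.83% between strains in soleus. The Slc37a4, Pcx and Fbp2 calls were each lost on leaving out some single libraries, and those of Pck1 and Fbp1 were kept.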

How the results depend on the processing

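Of 88 member results past the threshold, 54 stayed past it under every alternative and every left-out library. Quantile normalization took the liver counts from 2 to 1 in BALB/cJ, 2 to 1 for diet by day and 1 to 0 for days on RC. The range of the animal number as a covariate gave 2 liver members for days on RC and 5 for strains on RC, against 3, 1 soleus member in BALB/cJ, against 0, 2 for strains on RC in soleus, against 4, and 1 adipose member in BALB/cJ, against 0. Fits of a strain's own libraries gave 1 liver member in BALB/cJ, 0 in C57Bl/6J and 2 soleus members in DBA/2J, against 0. A filter on the median level, under which G6pc, Fbp1 and Pklr left the soleus test and those and Fbp2 the adipose test, gave 1 soleus member in BALB/cJ, 2 for strains on RC in soleus and 0 for strains on RC in adipose tissue. A prior count of 0.25 gave 2 for strains on RC in soleus. Without libraries of high hepatocyte markers, chosen after seeing the data, the soleus counts were 1 in C57Bl/6J, 0 for diet by strain and 2 for strains on RC. Without libraries of low adipocyte markers, also chosen after seeing the data, 3 adipose members differed between strains on RC.

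Left-out libraries gave liver counts of 3 to 3 over all strains and days, 0 to 1 in C57Bl/6J, 3 to 4 in DBA/2J, 1 to 4 in BALB/cJ, 2 to 5 for diet by strain, 1 to 2 for diet by day, 3 to 4 for strains on RC and 0 to 2 for days on RC. In soleus they gave 3 to 3 over all strains and days, 2 to 3 in C57Bl/6J, 0 to 1 in DBA/2J, 0 to 1 in BALB/cJ, 0 to 1 for diet by strain and 2 to 5 for strains on RC, and in adipose tissue 1 to 1 over all strains and days and 0 to 1 in BALB/cJ. Signs turned for Fbp1 in liver over all strains and days after quantile normalization (0.023), for Pck1 in soleus over all strains and days after quantile normalization (-0.0025) and over left-out libraries (-0.072 to 0.10), and for Fbp1 in adipose tissue over all strains and days with a prior count of 0.25 (-0.075), without libraries of low adipocyte markers (-0.051) and over left-out libraries (-0.080 to 0.24). Without libraries of high hepatocyte markers they turned for G6pc (0.12), Fbp1 (0.14) and Pklr (0.12) in soleus over all strains and days and for Pklr in BALB/cJ minus DBA/2J on RC (0.11). None of these had passed the threshold except the last; the cause was not tested.

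Animals of 1 strain and day share a number across diets in 20 pairs per tissue. Their deviations correlated above 0.1 in 12 pairs in liver, 7 in soleus and 4 in adipose tissue. The block was left out of the main fit because not every pair was above 0.1, which does not show that the pairing is negligible. Its consensus correlation was 0.1433 in liver, 0.04437 in soleus and -0.2365 in adipose tissue. In BALB/cJ on day 13 the 3 pairs had 0.418 to 0.468 in liver and 0.303 to 0.574 in soleus. With the replicate block, 1 soleus member passed in BALB/cJ, against 0, and Pck1, Pcx and Fbp2 in BALB/cJ adipose tissue on day 33 reached adjusted p of 0.0665, 0.0591 and 0.0898.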
